A study of Mus musculus with 4 samples.

Results

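Messenger RNA was sequenced from mouse cortical cells sorted for astrocytes, and the genes described here encode the spliceosome and its core splicing factors. They were taken as the protein-coding genes whose symbol starts with Snrp, Sf3a, Sf3b, U2af, Prpf, Srsf, Hnrnp or Lsm followed by a digit, leaving out Snrpn. The rule itself uses no measured value, but it was set with earlier results of these data known. This gave 80 of the 29224 genes in the table, of which 11 belong to the snRNP, 9 to the SF3, 3 to the U2AF, 13 to the PRP, 13 to the LSM, 11 to the SR and 20 to the hnRNP family. In total, 78 of the 80 had enough counts to be tested.

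The study compared Ezh2 f/f mice, which carry floxed Ezh2 alleles, with Ezh2 cKO mice, in which Cre recombinase driven by the astrocyte gene Aldh1l1 removes Ezh2. Ezh2 encodes the methyltransferase of Polycomb repressive complex 2. Cortical cells were taken at P5 and enriched for astrocytes on magnetic beads carrying an antibody to the surface protein GLAST, and there were 2 libraries per group. Titles of the samples give only the letters W and C, with the cerebral cortex as tissue, and the series' design text ties them to the genotypes, the age and the bead sort. The methods name the C57BL/6J and ICR strains for the study as a whole. Neither source says whether the libraries of a group came from separate or pooled animals, so p-values measure only the spread between these libraries. Which of the sorted cells, astrocytes or other types that come through the beads, had lost Ezh2 was not tested.

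Splicing removes introns from pre-mRNA in a large complex built anew on each intron. Small nuclear RNAs, each wrapped by a ring of Sm or LSM proteins, recognise the splice sites and the branch point, with SF3 and U2AF proteins holding the branch point and the end of the intron, and PRP proteins joining, activating and rearranging the complex. SR proteins mostly promote and hnRNP proteins often repress the use of nearby sites, and many of them also act in mRNA export, translation and decay. Transcripts of these genes are abundant in most dividing and young cells, including those of the developing cortex.

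The Ezh2 f/f libraries held 17522152 and 16273308 counts and the Ezh2 cKO libraries 17330230 and 16678309, so that 3 counts correspond to between 0.171 and 0.184 CPM (counts relative to the size of the library). The lowest count of any tested splicing gene was 109, and standard errors (SE) of their log2 fold changes lay between 0.08 and 0.18. Ezh2 itself stood at 25.4 and 20.8 CPM in Ezh2 f/f and at 11.97 and 9.47 CPM in Ezh2 cKO (log2 fold change -1.11 ± 0.16 SE, adjusted p = 3.26e-05). A negative log2 fold change means a lower level in Ezh2 cKO, and adjusted p-values are from edgeR's quasi-likelihood test with Benjamini-Hochberg adjustment over 16793 genes. Cell type markers also differed between the groups. Summed neuron markers exceeded summed astrocyte markers in every library, at 6789 and 7129 against 648 and 705 CPM in Ezh2 f/f and at 11851 and 11525 against 3345 and 3049 CPM in Ezh2 cKO. These sums run over 15 neuron and 12 astrocyte genes, are not scaled to gene length and do not measure a ratio of cells. Tubb3 alone held 60862 and 57681 counts in Ezh2 f/f.

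In each of the 7 families more splicing factor transcripts fell than rose in Ezh2 cKO. Of the 78 genes tested, 62 fell (79.5%), 6 rose (7.69%) and 10 did not pass an adjusted p of 0.05, whereas 33.6% of all genes tested fell and 34.7% rose. A fall of at least 2-fold was called for 27 splicing genes and a rise of that size for 0, against 14.0% and 19.0% of all genes, and the highest log2 fold change of a splicing gene was 0.86. Both Ezh2 cKO libraries lay below both Ezh2 f/f libraries for 65 of the 78 genes and above both for 6, against 41.5% and 42.8% of all genes. The median log2 fold change was -0.79 over the splicing genes and 0.02 over all genes, and 68 of the 78 (87.2%) had a log2 fold change under 0 against 49.3% of all genes. In bulk RNA, fewer cells of a type and less RNA per cell cannot be told apart.

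**Figure D1:**
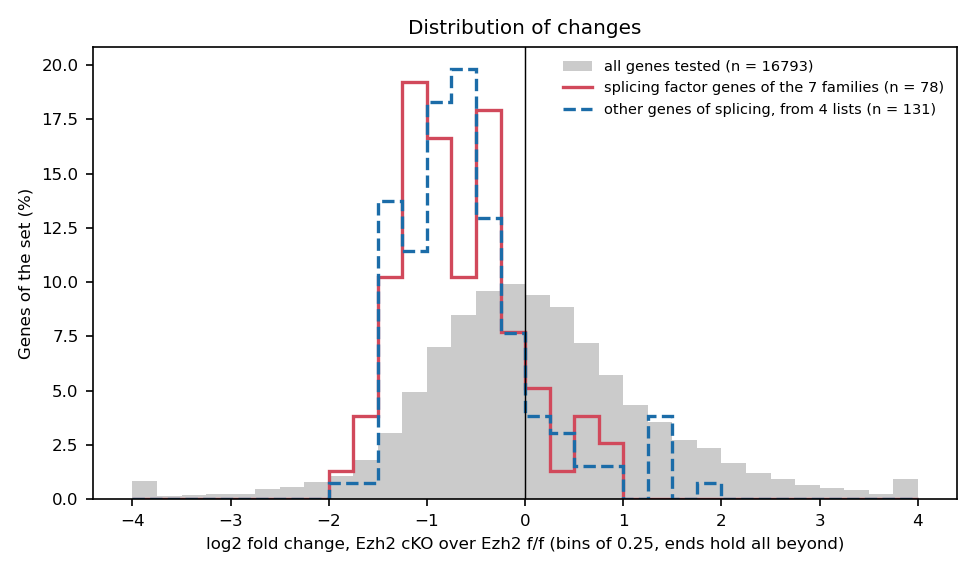
Share of genes (percent, y axis) in bins of log2 fold change of 0.25, Ezh2 cKO over Ezh2 f/f (x axis), for all 16793 genes tested (grey), the 78 splicing factor genes (red line) and 131 other genes of splicing from 4 lists (blue dashed line). The end bins hold every gene beyond them; all genes centre near 0, while both splicing sets have most of their genes to the left of it.

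Several markers moved with these genes. The counts below stand beside 33.6% of all genes tested that fell and 34.7% that rose. Immature neuron markers such as Dcx and Sox11 fell for 8 of 10 genes and rose for 0, with summed levels of 9130 to 9255 CPM in Ezh2 f/f and 3974 to 4055 CPM in Ezh2 cKO. Cycling genes fell for 10 of 12 and rose for 0, with sums of 237 to 254 CPM and of 142 to 150 CPM. Neural progenitor markers fell for 7 of 9 tested and rose for 2, with a median log2 fold change of -1.04, and Hmga2 was at 0 in 1 library. Their sums still overlapped, at 595 to 642 CPM and 601 to 679 CPM. These sums lean on Fabp7, the most abundant of the list in every library. Its level rose in Ezh2 cKO to 8694 and 7279 counts, from 3827 and 4107. Other marker lists mostly rose, with 10 of 12 astrocyte, 12 of 15 neuron, 8 of 8 oligodendrocyte precursor, 8 of 8 tested oligodendrocyte and 10 of 10 microglia markers higher. The neuron marker Tubb3 fell, from 60862 and 57681 counts to 39585 and 37613 counts (log2 fold change -0.71). Oligodendrocyte markers summed to 87.3 to 102 CPM in Ezh2 f/f and to 762 to 887 CPM in Ezh2 cKO, with Mobp at 0 in 1 Ezh2 f/f library and Opalin at 0 in both, and microglia markers to 109 to 111 CPM and to 288 to 340 CPM. Of 9 endothelial markers 1 fell and 3 rose, of 6 mural markers 1 fell and 3 rose, and of 5 erythrocyte genes 3 rose. The share of endothelial markers that rose (33.3%) was near that of all genes. Mitochondrially encoded transcripts rose for 9 of 12 tested, from sums of 16855 to 20926 CPM to sums of 26691 to 27404 CPM, and 4 of 5 nuclear-retained RNAs rose and 1 fell. No marker was at 0 in all 4 libraries, and the part of these differences in the splicing results was not tested.

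Summed counts, which depend on neither the filter nor TMM, were lower as well. Counts of all 80 splicing genes made up 1.29% and 1.22% of an Ezh2 f/f library against 0.772% and 0.815% of an Ezh2 cKO library, a ratio of 0.633. An exact two-sided permutation test of the 4 shares gave p = 0.333, the smallest value that 2 libraries against 2 allow. The share fell most in the U2AF (ratio 0.481), snRNP (0.518) and SF3 (0.532) families. It fell least in the LSM family (0.819), with PRP (0.643), hnRNP (0.658) and SR (0.692) genes between them. The LSM sum includes Lsm11, which rose from 2034 and 2218 counts in Ezh2 f/f to 3866 and 4266 in Ezh2 cKO. An LSM ratio without Lsm11 was not computed. Hnrnpa1 alone held 7.87% and 7.75% of the counts of all 80 genes in Ezh2 f/f against 5.999% and 5.86% in Ezh2 cKO. Without Hnrnpa1 the ratio over all splicing genes was 0.646.

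**Figure D2:**
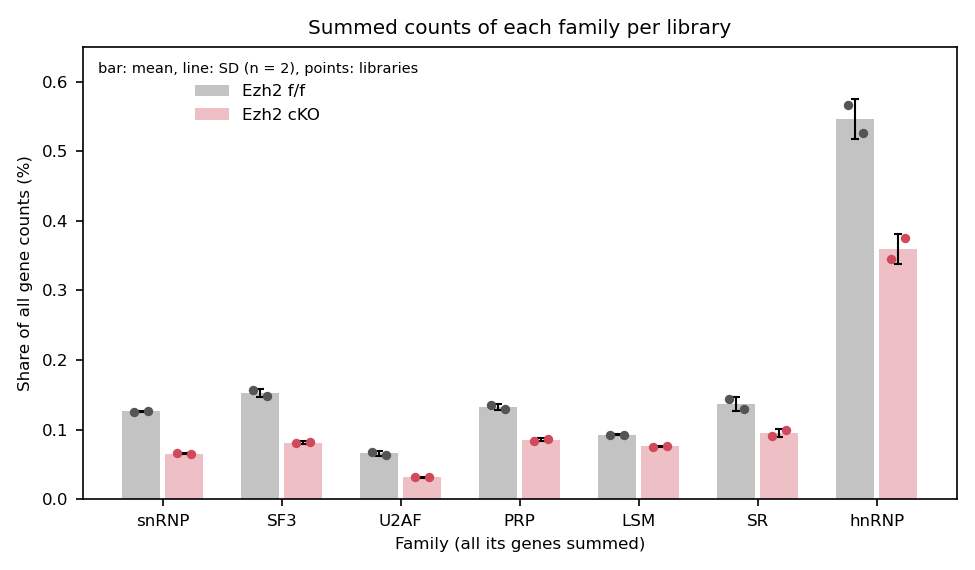
Percent of all gene counts taken by each family (y axis, from 0), with bars at the mean of 2 libraries per group, lines at the SD and points at the libraries. In each of the 7 families both Ezh2 cKO libraries lie below both Ezh2 f/f libraries.

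Promoters of genes at both ends of the range of changes are shown, so that genes that fell can be read beside genes that rose. RefSeq promoters (GRCm38.p6, from 250 bases before to 50 bases after the start) were matched for 68 of the 80 genes and for 17491 protein-coding genes in all. The stretches below are the 120 bases just before a start, 5′ to 3′ on the gene's strand, with capitals marking motifs found on either strand. These were GGGCGG, known as the SP and KLF factors' motif, the NFY motif CCAAT, and CCGGAAG, which is bound by ETS factors. The first 4 belong to genes that fell and the last 4 to genes that rose.
Sf3a2 (chr10:80798615-80798734, plus strand): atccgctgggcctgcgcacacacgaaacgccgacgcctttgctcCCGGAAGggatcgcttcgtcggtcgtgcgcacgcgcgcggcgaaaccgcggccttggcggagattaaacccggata
Hnrnpa0 (chr13:58128557-58128676, minus strand): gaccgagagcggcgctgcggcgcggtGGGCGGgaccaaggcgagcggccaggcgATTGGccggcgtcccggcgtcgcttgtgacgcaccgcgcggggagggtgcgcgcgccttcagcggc
U2af1 (chr17:31658755-31658874, minus strand): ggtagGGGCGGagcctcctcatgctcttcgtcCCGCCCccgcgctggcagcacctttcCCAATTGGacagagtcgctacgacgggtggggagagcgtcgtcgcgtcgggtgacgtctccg
Prpf8 (chr11:75486657-75486776, plus strand): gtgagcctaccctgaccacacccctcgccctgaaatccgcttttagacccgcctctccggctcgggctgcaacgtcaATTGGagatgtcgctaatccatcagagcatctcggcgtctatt
Prpf31 (chr7:3629865-3629984, plus strand): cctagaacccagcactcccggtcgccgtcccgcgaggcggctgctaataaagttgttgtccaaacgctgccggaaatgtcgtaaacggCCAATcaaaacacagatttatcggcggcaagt
Lsm11 (chr11:45944936-45945055, minus strand): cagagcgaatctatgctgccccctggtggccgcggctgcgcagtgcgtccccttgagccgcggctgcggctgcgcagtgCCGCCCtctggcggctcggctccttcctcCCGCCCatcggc
Srsf9 (chr5:115327057-115327176, plus strand): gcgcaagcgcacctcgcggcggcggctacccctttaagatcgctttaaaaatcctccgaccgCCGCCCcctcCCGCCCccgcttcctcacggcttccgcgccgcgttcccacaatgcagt
Hnrnpa2b1 (chr6:51469895-51470014, minus strand): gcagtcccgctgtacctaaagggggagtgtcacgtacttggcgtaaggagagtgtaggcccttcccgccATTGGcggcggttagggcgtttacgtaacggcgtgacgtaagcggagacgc

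Each of the 8 stretches carries at least 1 of the motifs searched. U2af1 and Hnrnpa2b1 have 2 windows each, and the stretch printed is from the window with the most CpG dinucleotides. Over the 300-base windows, with the highest value taken for genes with several starts, splicing genes held a median of 26 CpG dinucleotides and a GC content of 61.3%, against 15 and 57.3% over all protein-coding genes. That comparison set, used for the motifs below as well, was not limited to genes tested here or matched for level. GGGCGG was present in 49 of 68 windows (72.1%) against 49.2% of all, and CCAAT in 34 (50%) against 42.3%. CCGGAAG occurred in 21 windows (30.9%) against 12.9% of all, in 18 of the 52 matched genes that fell and in 1 of the 6 that rose. The same split was 37 of 52 and 4 of 6 for GGGCGG and 27 of 52 and 2 of 6 for CCAAT. The TATA box TATAAA was found in 6 windows (8.82%) against 14.8%, and the E box CACGTG in 9 (13.2%) against 8.91%. The E2F-type motif TTTCGCGC was in 2 windows (2.94%) against 0.526%, and the longer NRF1 and YY1 motifs, searched by name, were in 1 window each (1.47%), against 1.47% and 1.06% of all. These matches describe letters, not bound sites, and all 3 of the motifs marked were found among genes that fell and genes that rose.

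**Figure D3:**
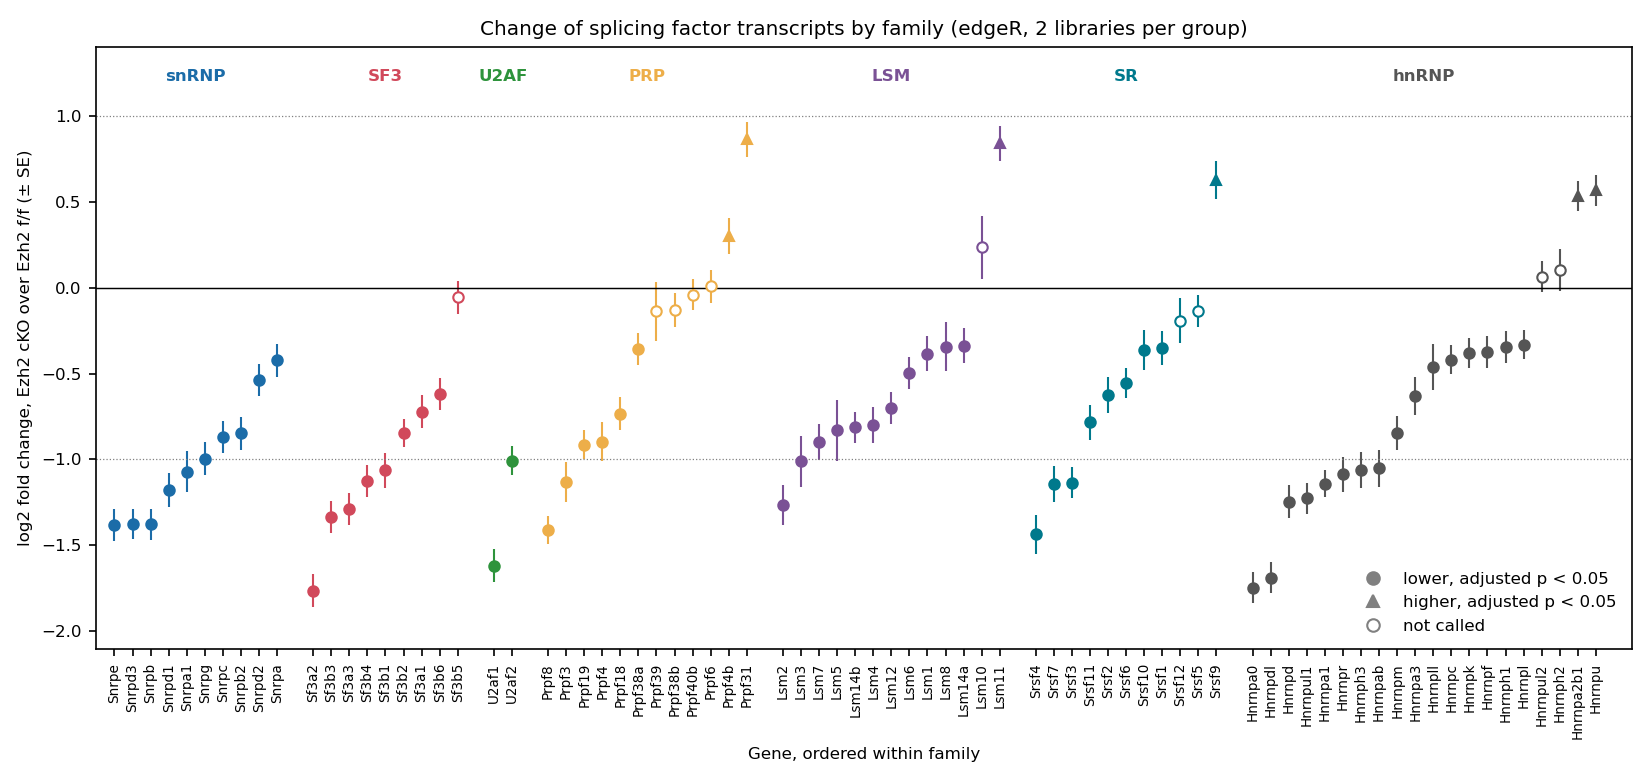
Log2 fold change with SE, Ezh2 cKO over Ezh2 f/f (y axis), of 77 of the 78 splicing genes tested, ordered within their families (x axis). Filled circles fell and triangles rose at an adjusted p under 0.05, open circles did not pass it, and dotted lines mark 2-fold; Sf3a2 is lowest and Prpf31 highest.

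All 10 tested snRNP genes fell, 5 of them by at least 2-fold, with a median log2 fold change of -1.03. Counts for this family and those below stand beside 33.6% of all genes tested that fell and 34.7% that rose. At 2-fold or more, 14.0% of all genes fell and 19.0% rose. The Sm ring encircles the U1, U2, U4 and U5 small nuclear RNAs, and its 6 tested genes had log2 fold changes from -1.38 to -0.54. Snrpb, which encodes a ring protein and the most abundant family transcript per length, stood at 273 and 280 CPM in Ezh2 f/f and at 110 and 103 CPM in Ezh2 cKO (log2 fold change -1.38 ± 0.09 SE, adjusted p = 1.12e-08). Snrpd3, for another ring protein, stood at 254 and 262 CPM and at 99.0 and 99.7 CPM (-1.38 ± 0.09 SE, adjusted p = 1.00e-08). Snrpe stood at 84.2 and 88.6 CPM and at 32.2 and 34.2 CPM (-1.38 ± 0.09 SE, adjusted p = 1.87e-08). Each of these 3 genes was 2.60-fold lower, although their levels differ. Snrpd1 (-1.18) and Snrpg (-0.99) fell less, and Snrpd2, at 167 and 170 CPM against 123 and 109 CPM, fell least within the ring (-0.54 ± 0.09 SE, adjusted p = 0.000154).

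Transcripts for proteins that belong to a single snRNP also fell. For the U2 snRNP, Snrpa1 stood at 36.7 and 34.2 CPM in Ezh2 f/f and 16.6 and 17.1 CPM in Ezh2 cKO (log2 fold change -1.07 ± 0.12 SE, adjusted p = 2.35e-06), and its partner Snrpb2 changed by -0.85. For the U1 snRNP, which binds the start of the intron, Snrpc changed by -0.87 and Snrpa by -0.42 on the log2 scale. Snrpa, at 82.4 and 89.1 CPM against 63.5 and 64.4 CPM, had the smallest fall of the family (adjusted p = 0.00127). Both its Ezh2 cKO libraries lay below both Ezh2 f/f libraries, as for 41.5% of all genes tested.

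The SF3 family, whose SF3A and SF3B complexes clamp the U2 snRNP on the branch point, fell for 8 of 9 genes and by at least 2-fold for 5, with a median of -1.06. Sf3a2, the SF3A subunit next to the branch helix, had the largest fall of all 78 genes. It stood at 165 and 174 CPM in Ezh2 f/f and at 52.5 and 47.6 CPM in Ezh2 cKO, 3.39-fold lower (log2 fold change -1.76 ± 0.10 SE, adjusted p = 2.67e-09). Sf3a3 stood at 86.2 and 84.3 CPM against 34.8 and 35.03 CPM (-1.29 ± 0.09 SE, adjusted p = 2.82e-08), while Sf3a1 fell less (-0.72). The products of these genes form 1 complex, and whether their changes differ was not tested.

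Among SF3B genes, Sf3b3, a large scaffold subunit, stood at 191 and 189 CPM in Ezh2 f/f and 71.5 and 79.4 CPM in Ezh2 cKO (log2 fold change -1.33 ± 0.09 SE, adjusted p = 2.66e-08). Sf3b4, an RNA-binding subunit, stood at 136 and 136 CPM and at 61.3 and 63.3 CPM (-1.13 ± 0.09 SE, adjusted p = 1.12e-07). Sf3b1, the subunit that holds the branch point, stood at 327 and 269 CPM and at 139.7 and 146 CPM (-1.06 ± 0.10 SE, adjusted p = 5.21e-07). All 3 fell at least 2-fold. Both Ezh2 cKO libraries lay below both Ezh2 f/f libraries for each, as for 41.5% of all genes tested. Sf3b2 (-0.85) and Sf3b6 (-0.62), whose product contacts the branch point adenosine, fell by less. Sf3b5, for the smallest of the named subunits, was not called at 57.1 and 55.6 CPM against 56.8 and 51.5 CPM (-0.06 ± 0.09 SE, adjusted p = 0.601), and its libraries overlapped between groups.

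U2AF recognises the end of the intron as a pair of proteins, U2af2 on the pyrimidine tract and U2af1 on the terminal AG. U2af1 stood at 177 and 163 CPM in Ezh2 f/f and 55.9 and 54.8 CPM in Ezh2 cKO, 3.07-fold lower (log2 fold change -1.62 ± 0.09 SE, adjusted p = 4.49e-09). U2af2 stood at 523 and 495 CPM and at 261 and 245 CPM, 2.01-fold lower (-1.01 ± 0.08 SE, adjusted p = 1.30e-07). Both fell without overlap between groups, and 41.5% of all genes tested also had both Ezh2 cKO libraries below both Ezh2 f/f libraries. Per length (in FPKM, which are counts scaled to gene length and library size) U2af1 was 0.535 and 0.521 times U2af2 in Ezh2 f/f and 0.339 and 0.354 times in Ezh2 cKO. The third gene, U2af1l4, held 1 and 2 counts in Ezh2 f/f and 0 in both Ezh2 cKO libraries, under the 3 counts taken as the floor. It did not pass the count filter and was not tested.

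**Figure D4:**
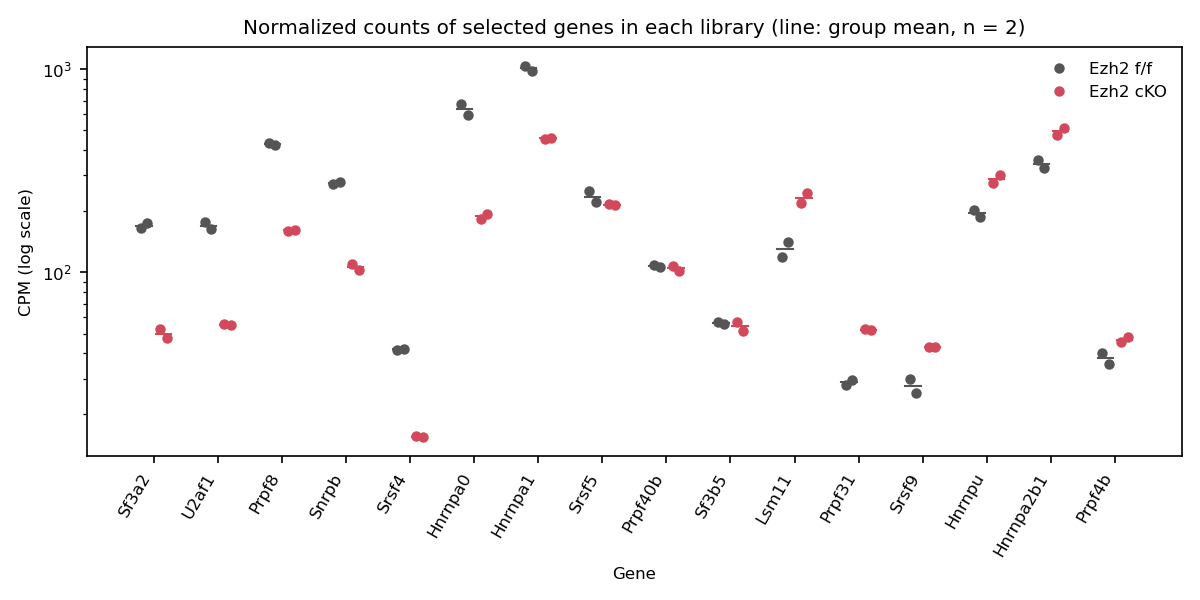
CPM on a log axis (y axis) of 16 splicing genes in each of the 4 libraries, Ezh2 f/f in grey and Ezh2 cKO in red, with a line at each group's mean (n = 2). Libraries of a group lie close together; Sf3a2 to Hnrnpa1 are lower in both Ezh2 cKO libraries, Prpf40b and Sf3b5 overlap between groups, and Lsm11 to Prpf4b are higher.

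PRP genes were the most divided family, with 7 of 13 lower (53.8%), 2 higher (15.4%), 4 not called and a median of -0.36. Over all genes tested 33.6% fell and 34.7% rose. Prpf8, the U5 scaffold of the catalytic centre, stood at 432 and 423 CPM in Ezh2 f/f and 159.7 and 162 CPM in Ezh2 cKO, 2.66-fold lower (log2 fold change -1.41 ± 0.08 SE, adjusted p = 5.13e-09). Prpf3, a U4/U6 protein, stood at 40.9 and 46.1 CPM and at 18.9 and 20.8 CPM (-1.13 ± 0.12 SE, adjusted p = 1.10e-06). Prpf19, a ubiquitin ligase that helps activate the assembled complex, stood at 442 and 425 CPM and at 227 and 234 CPM (-0.91 ± 0.08 SE, adjusted p = 2.97e-07). Each of the 3 fell in both Ezh2 cKO libraries, and so did Prpf4 (-0.90), the partner of Prpf3, and Prpf18 (-0.73), which acts in the second step of splicing.

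Prpf31, another U4/U6 protein, went the opposite way and had the largest rise of the 78 genes. Its level was 28.0 and 29.5 CPM in Ezh2 f/f and 52.6 and 51.8 CPM in Ezh2 cKO, 1.82-fold higher (log2 fold change 0.86 ± 0.10 SE, adjusted p = 3.54e-06). Per length, Prpf3 was 1.403 and 1.504 times Prpf31 in Ezh2 f/f and 0.345 and 0.385 times in Ezh2 cKO, so their order reversed between groups. Prpf4b, a kinase of the spliceosome, stood at 40.3 and 35.4 CPM and at 45.6 and 47.8 CPM (0.30 ± 0.10 SE, adjusted p = 0.019). This rise was small and did not pass the threshold with DESeq2 (adjusted p = 0.0693) or without Ezh2 f/f replicate 2 (0.176), Ezh2 cKO replicate 1 (0.0688) or Ezh2 cKO replicate 2 (0.132). Prpf6, which bridges U5 with U4/U6, was at 49.9 and 45.4 CPM and at 47.9 and 47.9 CPM (0.01 ± 0.10 SE, adjusted p = 0.953), with the Ezh2 cKO libraries between the Ezh2 f/f ones.

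Other PRP genes had smaller differences. Prpf40b, a protein associated with the U1 snRNP, was at 109 and 107 CPM in Ezh2 f/f and at 108 and 102 CPM in Ezh2 cKO (log2 fold change -0.04 ± 0.09 SE, adjusted p = 0.708), with overlapping groups. Prpf38a, needed to activate the spliceosome, fell slightly (-0.36 ± 0.09 SE, adjusted p = 0.00415), and its paralog Prpf38b had a value of -0.13 ± 0.10 SE (adjusted p = 0.26). Prpf39, also associated with U1 and the least abundant tested gene per length, had a value of -0.14 ± 0.17 SE (adjusted p = 0.491). A difference between these paralogs in their change was not tested.

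LSM genes fell for 11 of 13, rose for 1 and had a median of -0.70. The LSM2 to LSM8 ring binds the end of U6 small nuclear RNA, and all 7 of its genes fell, with log2 fold changes from -1.26 to -0.34. Lsm2 stood at 38.2 and 37.8 CPM in Ezh2 f/f and 15.4 and 16.2 CPM in Ezh2 cKO, 2.40-fold lower (-1.26 ± 0.12 SE, adjusted p = 3.87e-07). Lsm3 stood at 22.2 and 25.5 CPM and at 12.9 and 10.7 CPM (-1.01 ± 0.15 SE, adjusted p = 3.71e-05). Lsm7 stood at 99.6 and 98.4 CPM and at 57.8 and 48.5 CPM (-0.90 ± 0.10 SE, adjusted p = 3.79e-06). Lsm4, the most abundant LSM transcript per length, fell from 117 and 106 CPM to 68.9 and 59.1 CPM (-0.80 ± 0.10 SE, adjusted p = 1.11e-05). Lsm8, the subunit that keeps the ring on U6 in the nucleus, stood at 23.2 and 20.2 CPM and at 18.7 and 15.6 CPM, a fall that passed narrowly (-0.34 ± 0.14 SE, adjusted p = 0.0466) and not under 9 of the 13 other settings, where its adjusted p was between 0.0729 and 0.322.

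Lsm1, which takes the place of Lsm8 in the cytoplasmic ring that promotes decapping of mRNA, fell by a similar amount (-0.38 ± 0.10 SE, adjusted p = 0.00395). Lsm14b and Lsm14a, proteins of cytoplasmic RNA granules, both fell, Lsm14b from 272 and 250 CPM to 149 and 147 CPM (-0.81 ± 0.09 SE, adjusted p = 1.78e-06) and Lsm14a from 50.1 and 46.1 CPM to 37.2 and 39.0 CPM (-0.34 ± 0.10 SE, adjusted p = 0.00812). Lsm10 and Lsm11 differ from the other LSM genes in that their products replace 2 Sm proteins in the U7 snRNP, which processes histone mRNA and takes no part in splicing. Lsm11 rose from 119 and 141 CPM in Ezh2 f/f to 219 and 246 CPM in Ezh2 cKO, 1.79-fold higher (0.84 ± 0.10 SE, adjusted p = 6.06e-06). Lsm10 was at 10.6 and 13.7 CPM and at 16.3 and 12.2 CPM, with overlapping groups (0.23 ± 0.18 SE, adjusted p = 0.269). Neither U7 gene fell.

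SR genes fell for 8 of 11, rose for 1 and had a median of -0.55. Srsf3, a small SR protein that also couples splicing to mRNA export, stood at 346 and 323 CPM in Ezh2 f/f and 147 and 158 CPM in Ezh2 cKO (log2 fold change -1.14 ± 0.09 SE, adjusted p = 7.37e-08). Its paralog Srsf7 stood at 165 and 139 CPM and at 66.0 and 71.6 CPM (-1.14 ± 0.11 SE, adjusted p = 3.65e-07). Srsf4 stood at 41.7 and 42.2 CPM and at 15.6 and 15.4 CPM, 2.70-fold lower (-1.44 ± 0.11 SE, adjusted p = 8.69e-08). These 3 SR genes fell at least 2-fold, and Srsf3 and Srsf7 kept their ratio per length, at 0.941 and 1.05 in Ezh2 f/f against 0.997 and 0.993 in Ezh2 cKO. Srsf6, a relative of Srsf4, fell by 0.55 on the log2 scale, and the third of that set, Srsf5, was not called at 252 and 221 CPM against 216 and 214 CPM (-0.14 ± 0.09 SE, adjusted p = 0.197). Srsf11 (-0.78), Srsf2 (-0.62), Srsf10 (-0.36) and Srsf1 (-0.35) also fell, and Srsf12 had a value of -0.19 (adjusted p = 0.202).

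Srsf9 was the SR gene that rose, from 30.04 and 25.4 CPM in Ezh2 f/f to 42.7 and 42.9 CPM in Ezh2 cKO, 1.54-fold higher (log2 fold change 0.63 ± 0.11 SE, adjusted p = 0.000209). Its paralog Srsf1, a classical activator of exons, stood at 142 and 131 CPM and at 100.3 and 114 CPM (-0.35 ± 0.10 SE, adjusted p = 0.00571). Per length, Srsf1 was 1.37 and 1.495 times Srsf9 in Ezh2 f/f and 0.680 and 0.769 times in Ezh2 cKO, so that Srsf9 was the lower of the pair in one group and the higher in the other.

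Of the 20 hnRNP genes, 16 fell, 2 rose and 2 were not called, with a median of -0.54 and 8 falls of at least 2-fold. Hnrnpa1, a frequent repressor of exons and the most abundant splicing transcript per length in both groups, stood at 1042 and 976 CPM in Ezh2 f/f and 455 and 460.3 CPM in Ezh2 cKO (log2 fold change -1.14 ± 0.08 SE, adjusted p = 1.65e-08). Hnrnpa0 stood at 676 and 593 CPM and at 184 and 195 CPM, 3.35-fold lower (-1.75 ± 0.09 SE, adjusted p = 1.57e-09). Hnrnpa3 stood at 111 and 137 CPM and at 75.9 and 84.8 CPM (-0.63 ± 0.11 SE, adjusted p = 0.000184). Against these 3 falls, the fourth gene of the A subfamily rose: Hnrnpa2b1, which also takes part in mRNA transport along processes, stood at 357 and 328 CPM and at 476 and 514 CPM, 1.45-fold higher (0.53 ± 0.09 SE, adjusted p = 7.17e-05). Hnrnpa1 exceeded Hnrnpa2b1 per length by 6.10 and 6.22 times in Ezh2 f/f and by 2.00 and 1.87 times in Ezh2 cKO.

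The D subfamily, which binds AU-rich elements and acts in mRNA decay as well as splicing, fell throughout. Hnrnpdl stood at 584 and 548 CPM in Ezh2 f/f and 166 and 185 CPM in Ezh2 cKO, 3.22-fold lower (log2 fold change -1.69 ± 0.09 SE, adjusted p = 1.80e-09). Hnrnpd stood at 327 and 375 CPM and at 142 and 154 CPM (-1.24 ± 0.10 SE, adjusted p = 5.78e-08). Hnrnpab stood at 199 and 162 CPM and at 86.5 and 88.0 CPM (-1.05 ± 0.11 SE, adjusted p = 8.77e-07). All 3 were at least 2-fold lower with no overlap, where 41.5% of all genes tested had both Ezh2 cKO libraries below both Ezh2 f/f libraries. Hnrnpdl and Hnrnpd are neighbours on chromosome 5, with a gap of 54639 bases in the deposited coordinates, and the other pairs of splicing genes within 200000 bases were Lsm7 and Sf3a2 on chromosome 10 and Srsf7 and Hnrnpll on chromosome 17, all of them genes that fell. Members lay on 18 chromosomes in all.

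The U subfamily was split. Hnrnpu, a nuclear matrix and chromatin-associated RNA-binding protein, rose from 202 and 188 CPM in Ezh2 f/f to 275 and 302 CPM in Ezh2 cKO, 1.48-fold higher (log2 fold change 0.57 ± 0.09 SE, adjusted p = 7.08e-05). Its relative Hnrnpul1 fell from 276 and 262 CPM to 119 and 111 CPM, 2.34-fold lower (-1.23 ± 0.09 SE, adjusted p = 3.58e-08). Hnrnpul2 was at 155 and 154 CPM and at 153 and 170.1 CPM, with overlapping groups (0.06 ± 0.09 SE, adjusted p = 0.551). Hnrnpul1 was 1.83 and 1.87 times Hnrnpu per length in Ezh2 f/f and 0.580 and 0.493 times in Ezh2 cKO.

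Genes of the H and F subfamily, which bind runs of G, also differed in their calls. Hnrnph3 stood at 55.0 and 52.3 CPM in Ezh2 f/f and 26.6 and 24.8 CPM in Ezh2 cKO (log2 fold change -1.06 ± 0.10 SE, adjusted p = 6.02e-07). Hnrnpf (-0.38, adjusted p = 0.00286) and Hnrnph1 (-0.35, adjusted p = 0.00444) fell by less, and the X-linked Hnrnph2 was at 63.5 and 52.1 CPM and at 54.7 and 69.3 CPM, with overlapping groups (0.10 ± 0.12 SE, adjusted p = 0.48). Of the remaining genes, Hnrnpr, at 194 and 167 CPM against 79.6 and 90.6 CPM, fell at least 2-fold (-1.09 ± 0.10 SE, adjusted p = 5.40e-07). Hnrnpm (-0.85), the CA-repeat binding Hnrnpll (-0.46) and Hnrnpl (-0.33), the U-tract binding Hnrnpc (-0.42) and the C-tract binding Hnrnpk (-0.38) fell as well.

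Compared per length, the order of splicing genes was largely kept between groups, while the highest levels came closer to the rest. Spearman's rho between the mean FPKM of Ezh2 f/f and that of Ezh2 cKO was 0.888 over the 78 genes, which share their libraries. The highest levels in Ezh2 f/f were those of Hnrnpa1 (310.5 FPKM, mean of 2 libraries), Hnrnpa0 (230), Snrpb (145), U2af2 (120), Hnrnpdl (114) and Lsm4 (104), and in Ezh2 cKO these genes stood at 149, 72.7, 59.1, 63.3, 37.5 and 63.3 FPKM. In total, 6 genes reached 100 FPKM in Ezh2 f/f, against 1 in Ezh2 cKO. The more abundant genes also had the larger falls, with a median log2 fold change of -0.99 over the 39 genes at or above the median FPKM in Ezh2 f/f and of -0.38 over the 39 below it (Spearman's rho -0.447, with the Ezh2 f/f level part of both measures). Hnrnpa2b1 rose from a mean of 50.4 to 77.35 FPKM, and was second to Hnrnpa1 in Ezh2 cKO.

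**Figure D5:**
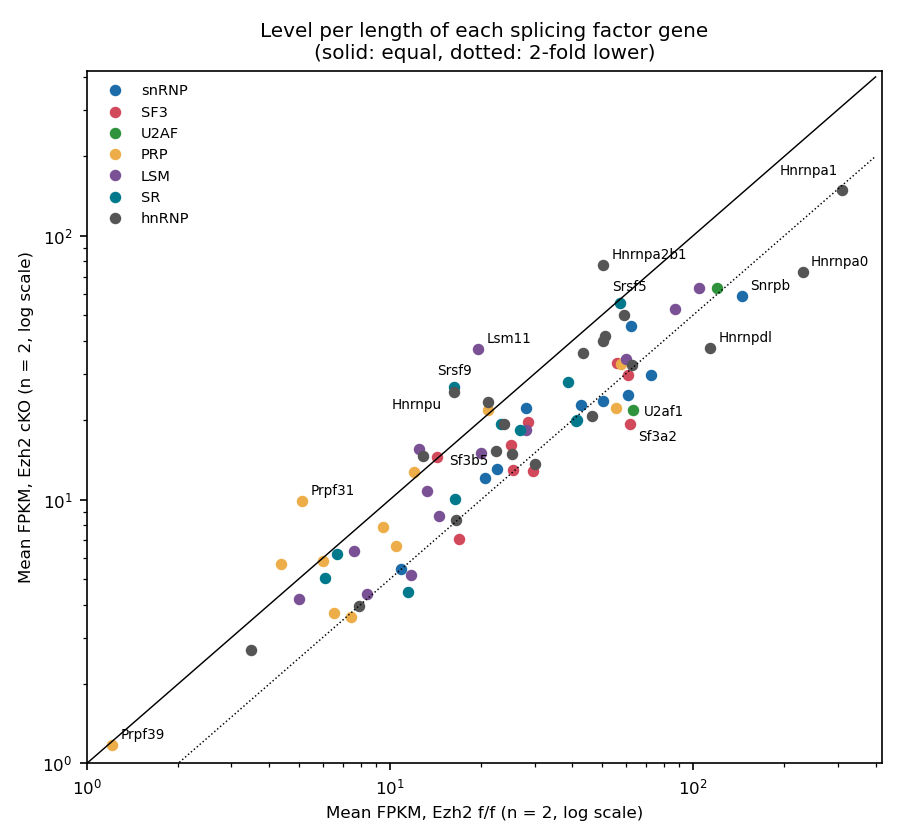
Mean FPKM in Ezh2 cKO (y axis) against mean FPKM in Ezh2 f/f (x axis), both on log axes and with n = 2, for 77 of the 78 splicing genes tested, coloured by family. Most points lie under the solid line of equal level and many near or under the dotted line of a 2-fold fall, while Prpf31, Lsm11, Srsf9, Hnrnpu and Hnrnpa2b1, among others, lie above the solid line.

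Genes of splicing outside these families mostly fell as well. Of 78 other spliceosome components, 61 fell (78.2%) and 7 rose (8.97%), with a median log2 fold change of -0.76. Of all genes tested, 33.6% fell and 34.7% rose. Among them the branch point binding protein Sf1 (-1.41 ± 0.08 SE), the tri-snRNP protein Sart1 (-1.37 ± 0.09 SE) and Rbm22 (-1.42 ± 0.09 SE), which contacts the catalytic RNA, fell, whereas the minor spliceosome protein Zmat5 (1.88 ± 0.21 SE), Ppil3 (1.48 ± 0.17 SE) and Zmat2 (0.80 ± 0.09 SE) rose. Of 25 genes of the exon junction complex and mRNA export, 19 fell and 2 rose (median -0.68). The export helicase Ddx39b, at 781 and 736 CPM in Ezh2 f/f and 223 and 215 CPM in Ezh2 cKO, had a log2 fold change of -1.79 ± 0.08 SE (adjusted p = 5.51e-10), Acin1 of -1.45 and the junction helicase Eif4a3 of -1.32, while the cap-binding Ncbp2 (1.46) and Thoc7 (0.43) rose.

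Genes that assemble snRNPs fell for 11 of 18 tested and rose for 3 (median -0.55), beside 33.6% and 34.7% of all genes. Smn1, which loads Sm rings onto small nuclear RNA, stood at 70.1 and 69.1 CPM in Ezh2 f/f and 26.1 and 25.3 CPM in Ezh2 cKO (log2 fold change -1.43 ± 0.10 SE, adjusted p = 1.65e-08), and Mepce (-1.36) and the Cajal body protein Coil (-1.25) fell too. The snRNP import adaptor Snupn (1.33) and the SMN complex genes Gemin8 (1.28) and Gemin6 (0.52) rose, so that genes of the SMN complex moved in both directions. Of 10 genes listed for kinases and import of SR proteins, 6 fell and 2 rose (median -0.31). Dyrk1a (-0.99), Clk2 (-0.75) and Clk4 (-0.61) were lower and Srpk3 (1.27) and Srpk2 (0.31) higher. The list also holds the phosphatase gene Ppp1cc, which is among those that fell (-0.52). Snrpn, the imprinted paralog of Snrpb that takes its place in neurons and was left out by the rule, stood at 97.7 and 117 CPM in Ezh2 f/f and 218 and 208 CPM in Ezh2 cKO (0.99 ± 0.10 SE, adjusted p = 1.02e-06). Snrpb was 3.26 and 2.78 times Snrpn per length in Ezh2 f/f and 0.586 and 0.577 times in Ezh2 cKO, beside the higher neuron markers given above, whose part was not tested.

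The other gene not tested, Snrpf, encodes a ring protein but was at 6 and 2 counts in Ezh2 f/f and at 5 and 1 counts in Ezh2 cKO, far under the other ring genes. In the GENCODE M21 annotation 85.4% of its exon bases are shared with other genes, among them Ccdc38 on the other strand, which held 13 and 20 counts and 6 and 7 counts. U2af1l4 shares 65.6% of its exon bases on the same strand, with Psenen among its partners. Shared exon bases were absent for 52 of the 80 genes and reached 25% for 6, including Srsf4 (43.0%), Hnrnpab (29.1%), Hnrnpf (26.5%) and Srsf2 (25.3%). Below that limit, Prpf31, with the largest rise, shared 18.1% and Sf3a2, with the largest fall, shared 16.1%, all on the other strand. Whether the counting used strand is not given in the sources used here, and the part of shared exons in these values was not tested.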

How the data were processed

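The authors deposited a table of raw read counts per gene and library and a table of FPKM values, scaled by them to gene length and library size. The first also holds the authors' own comparison (a mean signal, a ratio of the groups, its log2 value, and p-values), which was not used. The submitters' processing notes name Bowtie2 2.2.3, TopHat2 2.0.12, HTSeq 0.6.0 and mm9, without roles. Of 28799 genes with an identifier in GENCODE M21 (GRCm38), 581 had the deposited coordinates, so the build of the deposited coordinates is not settled and only distances between genes were taken from them.

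Groups follow the sample titles, W for Ezh2 f/f and C for Ezh2 cKO, as the series' design text pairs them. The splicing genes, gene lists and tests were chosen with earlier results of these data known. Counts were filtered with filterByExpr (16793 genes kept), normalized by TMM (Ezh2 f/f factors 0.976 and 0.967, Ezh2 cKO factors 1.019 and 1.040) and tested with edgeR 4.0.16's quasi-likelihood test in R 4.3.3, with the group as the only term. An adjusted p under 0.05 made a call. CPM use the TMM-adjusted library size. The floor was 3 counts, as many as a count of 0 allows, and covers counting error only. Log2CPM correlated at 0.988 and 0.990 across genes within groups and at 0.899 to 0.904 between them.

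Alternatives were DESeq2 1.42.0, other size factors, no filter and a mean of at least 50 counts, limma 3.58.1 on log2(FPKM + 1) and log2(FPKM + 0.1) over genes at FPKM 1 or more in 2 libraries, a replicate block, and each library left out. Tested on simulated data with 200 genes changed 2-fold between Ezh2 f/f and Ezh2 cKO, edgeR recovered 180 of them over 16387 genes with 7 false calls, DESeq2 173 with 6, and limma 179 over 15293 genes with 8. In the measured data 5650 genes fell and 5831 rose, far more than the 200 set here. How many false calls arise when that many genes differ was not tested.

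Genes named by rule were, in each family, the 4 falls and 4 rises with the smallest p, up to 6 changes of at least 2-fold, the gene highest in FPKM, fixed sets of paralogs, the U7 genes, untested genes, Ezh2, and the 3 falls and 3 rises with the smallest p of each of the 4 other splicing lists. This covers 57 of the 80 splicing genes; others named, Snrpn among them, and the genes whose promoters are printed were chosen after their values were seen. Python 3.11.15 with numpy 2.4.6, pandas 2.3.3, scipy 1.17.1 and matplotlib 3.10.9 were used for tables, permutation tests and figures. The values of 1 PRP gene are not reported here, though it stays in every count.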

Additional observations from a re-analysis of the deposited data

How the results depend on the processing

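Of the 68 splicing genes called, 59 kept their call under all 13 alternatives run, 9 (Lsm8, Lsm14a, Prpf38a, Prpf4b, Srsf10, Srsf1, Hnrnpll, Hnrnpf and Hnrnph1) lost it under at least 1, and 0 changed sign. The number that fell ranged from 56 to 63 and the number that rose from 5 to 6, with each library left out giving 56 to 63 and 5 to 6. The median log2 fold change was -0.81 with DESeq2 and with DESeq2's size factors, -0.72 with upper-quartile factors, -0.71 with library totals alone, -0.76 over genes with a mean of at least 50 counts, -0.63 with limma on log2(FPKM + 1), -0.71 on log2(FPKM + 0.1), and -0.81 to -0.74 with a library left out. The ratio of summed shares was 0.598 with the TMM-adjusted library size and 0.587 on summed FPKM. The largest shift of the median of all genes was 0.084, with library totals alone.

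Sign changes were limited to 6 genes that were not called. Prpf40b was at 0.034 with upper-quartile factors, 0.043 with library totals and 0.041 and 0.042 with the limma fits on log2(FPKM + 1) and log2(FPKM + 0.1), and Sf3b5 at 0.017, 0.026, 0.023 and 0.0245. Prpf6 was at -0.0089 with DESeq2 and with its size factors. With 1 library left out, Prpf39 ranged from -0.36 to 0.06, Prpf40b from -0.085 to 0.007, Prpf6 from -0.074 to 0.077, Sf3b5 from -0.1285 to 0.015, Hnrnpul2 from -0.012 to 0.14 and Hnrnph2 from -0.075 to 0.26. Without Ezh2 f/f replicate 2, Lsm10 (0.42) and Srsf5 (-0.24) passed the threshold. The cause was not tested.

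The replicate numbers name 2 pairs and nothing says that they mark a shared litter or day. Deviations from the group means correlated at 0.13 between libraries of the same number. With 2 libraries per group both pairs must give the same value. With the replicate number as a block, 62 genes fell and 6 rose, with a median of -0.79, and all 78 splicing genes kept their side of the threshold. With 2 libraries per group, changes of under 1.5-fold rest on small differences, and the genes that lost calls all lie there.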
